A study of Rattus norvegicus with 9 samples.

Results

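The mitochondrial carrier genes of the Slc25 family were measured in rat liver and macrophages on arrays that carried 36685 probe sets. Every probe set was taken whose single annotated gene symbol starts with Slc25a, which gave 40 probe sets, each for a different symbol. All 40 symbols were found in RefSeq, where 38 are ordinary gene entries and 2, Slc25a5-ps7 and Slc25a39-ps5, are pseudogenes. Family members without a probe set of their own under this rule were not analysed here.

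Whole livers came from Sprague-Dawley rat pups born to dams that had received PBS injections in pregnancy, and the pups were reared by foster dams. Pups received porcine CSF1-Fc, colony-stimulating factor 1 fused to an antibody Fc part to prolong its time in the circulation (4 livers), or PBS (2 livers), under the skin daily over 5 days, with the liver collected on day 6. The third group was bone marrow-derived macrophages (BMDM) of Dark Agouti rats, grown from marrow in CSF1 for 7 days (3 cultures), so cell type, strain and culture cannot be told apart in any comparison with BMDM. The comparison of the livers asks which transcripts differed after the treatment. BMDM give the level of each transcript in cultured marrow macrophages, which are not the macrophages of the liver. Values are log2 RMA expression, so a difference of 1 is a doubling, and the number of arrays limits their precision. Nothing in the labels says that the arrays of a group came from separate litters or marrow donors, so p-values measure only the spread between these arrays, and the sex of the pups was not given.

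Slc25 proteins sit mostly in the inner mitochondrial membrane, which is closed to charged metabolites, and each moves a small set of them between cytosol and matrix. In hepatocytes they carry adenine nucleotides and phosphate for oxidative phosphorylation, ornithine and aspartate for the urea cycle, acylcarnitine for fatty acid oxidation, and citrate for lipid synthesis. They are encoded in the nucleus, made in the cytosol and inserted by the translocases of the outer and inner membrane.

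Of all probe sets, 1.22% passed as higher and 0.254% as lower in CSF1-Fc than in PBS livers. In BMDM 17.5% passed as lower and 19.9% as higher against CSF1-Fc liver, and 10.4% and 10.2% against PBS liver. The counts of markers below are to be read beside these shares. The 6 measured hepatocyte markers were all lower in BMDM than in either liver group, and none passed between the livers. Albumin (Alb) was at 4.06, 4.06 and 3.97 in BMDM, against 12.90, 12.70, 12.71 and 12.73 in CSF1-Fc livers and 12.74 and 12.82 in PBS livers, while transferrin (Tf), at 7.62, 7.90 and 7.30 in BMDM, stayed above the array median of 3.81 there. Of 11 measured macrophage markers, 8 passed as higher in CSF1-Fc than in PBS livers. The log2 of the summed level of the 11 was 13.5 to 13.7 in BMDM, 13.8 to 13.9 in CSF1-Fc livers and 12.2 to 12.5 in PBS livers. That sum hides differences: in BMDM 5 of the 11 were lower than in CSF1-Fc liver. Higher were 2, which is near the share of all probe sets. Against PBS liver 4 were lower in BMDM and 6 higher. Of 6 Kupffer cell markers, 5 were higher in CSF1-Fc than in PBS livers and all 6 were lower in BMDM than in either liver group. Of 7 stellate cell and fibroblast markers, lumican (Lum, -2.17) and decorin (Dcn, -1.35) passed as lower in CSF1-Fc than in PBS livers. The 8 neutrophil markers had a median difference of -1.89 and none passed, but the log2 of their summed level was 9.23 to 10.5 in CSF1-Fc livers and 11.7 to 12.0 in PBS livers. The part of these cells in the levels of the carriers was not tested. PBS liver 2 correlated at 0.951 to 0.962 with the other livers, against 0.971 to 0.985 among the rest. In whole tissue, fewer cells of a type and less RNA per cell cannot be told apart.

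Few carrier transcripts differed between the treated and control livers beyond the spread of the arrays. Slc25a54 alone passed (limma, adjusted p under 0.05) as higher in CSF1-Fc liver and no member passed as lower, where 1.22% of all 36685 probe sets passed as higher and 0.254% as lower. At an unadjusted p under 0.05, 6 members were on the higher side and 2 on the lower, where 7.31% and 6.4% of all probe sets were. The median difference was -0.030 over the 40 members and -0.034 over all probe sets, the members ran between -0.65 and 0.93, and none reached 1. The 2 groups of livers did not overlap for 13 of the 40 members, where 20.7% of all probe sets did not. A lack of overlap in single members below is to be read beside that share.

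**Figure D1:**
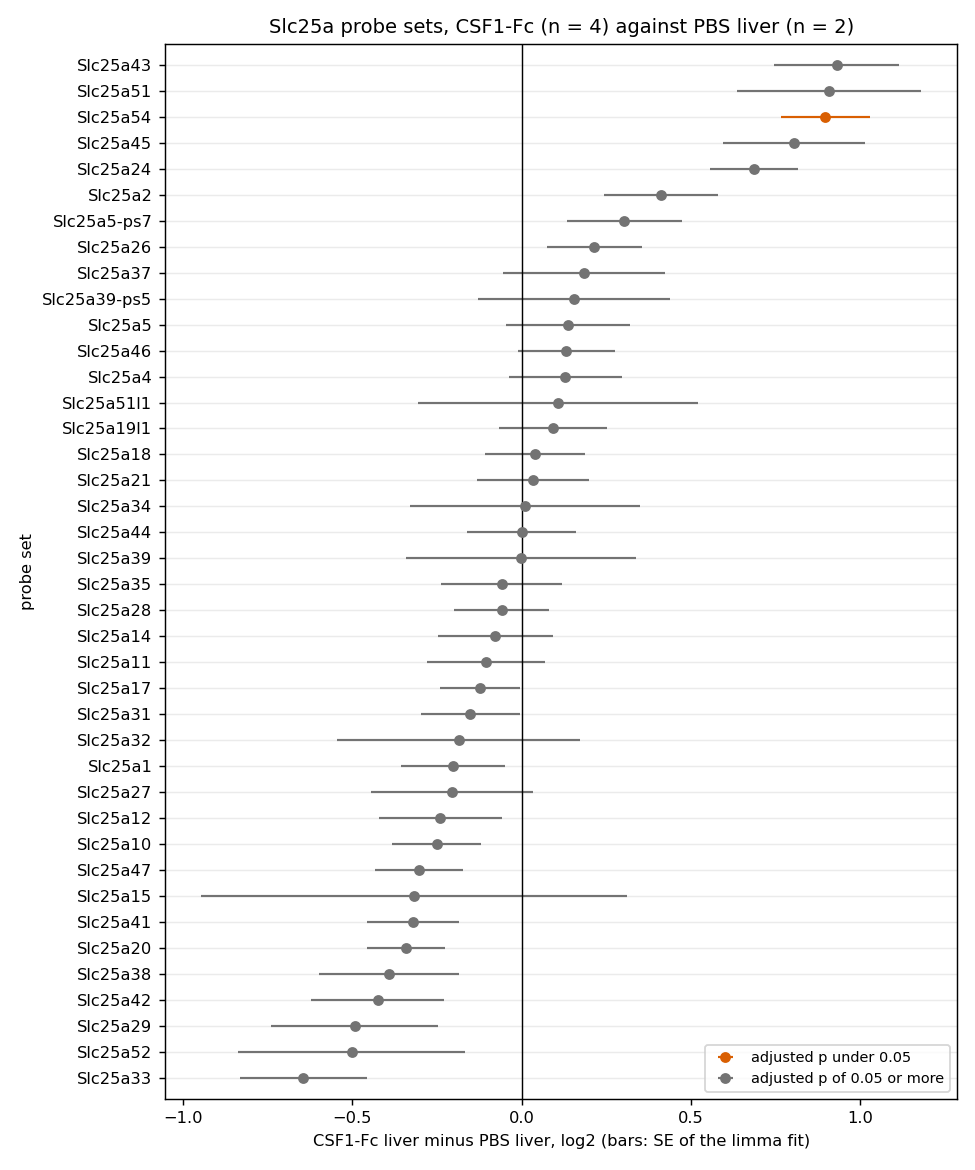
Difference in log2 expression between CSF1-Fc livers (n = 4) and PBS livers (n = 2) for each of the 40 Slc25a probe sets, with the standard error of the limma fit as bars. Slc25a54 is the only coloured point (adjusted p under 0.05), and Slc25a43, Slc25a51, Slc25a45 and Slc25a24 lie beside it at 0.69 to 0.93.

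Slc25a54, which is grouped here with the carriers of ATP-magnesium and phosphate, was at 3.81, 3.69, 3.67 and 3.83 in CSF1-Fc livers and at 2.74 and 2.97 in PBS livers. The groups did not overlap, and the difference was 0.90 (SE 0.13, adjusted p = 0.0379). BMDM were at 2.94, 2.66 and 2.99, close to the PBS livers. Slc25a54 lay at the 49.2th percentile of all probe sets in CSF1-Fc livers and at the 34.0th in PBS livers, near or below the middle of the array. With any single CSF1-Fc liver left out it no longer passed (adjusted p 0.119 to 0.136), nor did any probe set on the array. In those fits 5 or 6 members were on the higher side and 2 or 3 on the lower at an unadjusted p under 0.05, where 6.03% to 6.51% and 5.03% to 5.12% of all probe sets were. Over the alternatives that tested it, its difference was 0.78 to 1.02. Slc25a54 was also lost with array median centring (adjusted p = 0.0595) and a trended robust prior (0.0521). With the replicate block its adjusted p was 0.588. That fit used only arrays whose replicate number occurs in both groups. No probe set passed in it (lowest adjusted p 0.543), so it cannot decide this call.

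Slc25a24, the calcium-regulated ATP-magnesium/phosphate carrier known as SCaMC-1, was at 6.03, 5.90, 6.04 and 6.07 in CSF1-Fc livers and 5.43 and 5.21 in PBS livers. The groups again did not overlap, with a difference of 0.69 (SE 0.13) that missed the threshold (adjusted p = 0.0730). Over the alternatives its difference was 0.58 to 0.81. The last measured carrier of that group, Slc25a41, had a difference of -0.32 (SE 0.14, adjusted p = 0.384).

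Slc25a54 and Slc25a24 are neighbours on rat chromosome 2, on the same strand, with no protein-coding gene between their starts, and their annotated spans overlap in GRCr8. How far their probes are separate is not known here. Their promoters are shown because these neighbours had the same direction between the livers and opposite directions in BMDM relative to CSF1-Fc liver. Each is the 250 bases before the annotated start (RefSeq, GRCr8, plus strand, 5′ to 3′), with capitals for a match to a searched motif on either strand.
Slc25a24, chr2:199449175-199449424: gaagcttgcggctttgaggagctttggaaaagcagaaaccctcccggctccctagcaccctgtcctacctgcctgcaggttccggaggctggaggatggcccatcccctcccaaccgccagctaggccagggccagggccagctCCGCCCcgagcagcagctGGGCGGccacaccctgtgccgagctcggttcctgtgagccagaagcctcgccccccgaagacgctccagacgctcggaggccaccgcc
Slc25a54, chr2:199399456-199399705: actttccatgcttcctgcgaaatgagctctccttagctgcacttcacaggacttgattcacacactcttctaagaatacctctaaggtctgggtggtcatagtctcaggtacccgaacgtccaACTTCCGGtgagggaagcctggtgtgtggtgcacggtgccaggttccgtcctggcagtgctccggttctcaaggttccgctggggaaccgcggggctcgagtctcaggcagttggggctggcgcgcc
The capitals in Slc25a24 mark GGGCGG, the core of an Sp1 site, on either strand, with first bases 106 and 88 bases before the start, and those in Slc25a54 mark CCGGAAGT, an ETS-type motif, on the opposite strand, 127 bases before the start. GGGCGG was in 30.5% and CCGGAAGT in 3.10% of all 33469 promoters of that length.

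Slc25a43, whose substrate is not settled, had the largest difference between the livers among the members. It was at 6.66, 6.84, 6.77 and 6.84 in CSF1-Fc livers and at 5.56 and 6.14 in PBS livers, a difference of 0.93 (SE 0.19, adjusted p = 0.0848). All CSF1-Fc livers lay above both PBS livers, and the PBS livers were far apart. The difference was 1.22 without PBS liver 2 and 0.64 without PBS liver 1, each against a single PBS array.

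Slc25a51, which brings NAD into mitochondria, was at 5.26, 5.36, 5.17 and 5.36 in CSF1-Fc livers and at 4.87 and 3.88 in PBS livers. The groups did not overlap, but the difference of 0.91 (SE 0.27) did not pass (adjusted p = 0.215), and PBS liver 2 was the lowest. The size rested on which PBS liver was used, at 1.41 without PBS liver 1 and 0.41 without PBS liver 2. Slc25a52, known as an NAD carrier in human, was at 3.04, 2.15, 1.99 and 2.88 in CSF1-Fc livers and 2.92 and 3.11 in PBS livers, and its difference of -0.50 lay within an overlap of the groups (adjusted p = 0.568).

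Slc25a45, listed here beside the acylcarnitine carrier, was at 5.69, 6.33, 5.94 and 6.17 in CSF1-Fc livers and 5.11 and 5.35 in PBS livers. Its difference of 0.81 (SE 0.21, adjusted p = 0.160) came with no overlap. Slc25a20, the carnitine-acylcarnitine carrier that admits long-chain fatty acids to oxidation, had a mean of 8.33 in CSF1-Fc livers and 8.67 in PBS livers, a difference of -0.34 (SE 0.11, adjusted p = 0.268). These 2 carriers of the same list thus had opposite signs, and neither passed.

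On the lower side, Slc25a33, a carrier of pyrimidine nucleotides, had the largest difference. It was at 7.62, 7.37, 7.28 and 7.43 in CSF1-Fc livers and 7.81 and 8.33 in PBS livers, without overlap (difference -0.65, SE 0.19, adjusted p = 0.201). Here too the PBS livers set the size, at -0.91 without PBS liver 1 and -0.39 without PBS liver 2. Slc25a29, a carrier of basic amino acids, was at 3.83, 3.17, 3.39 and 3.76 in CSF1-Fc livers and 3.79 and 4.27 in PBS livers (difference -0.49, adjusted p = 0.460). Slc25a42, which exchanges coenzyme A, was at 7.20, 7.48, 7.07 and 7.00 in CSF1-Fc livers and 7.82 and 7.41 in PBS livers (difference -0.43, adjusted p = 0.422). Both sets of livers overlapped for these last 2 genes.

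**Figure D2:**
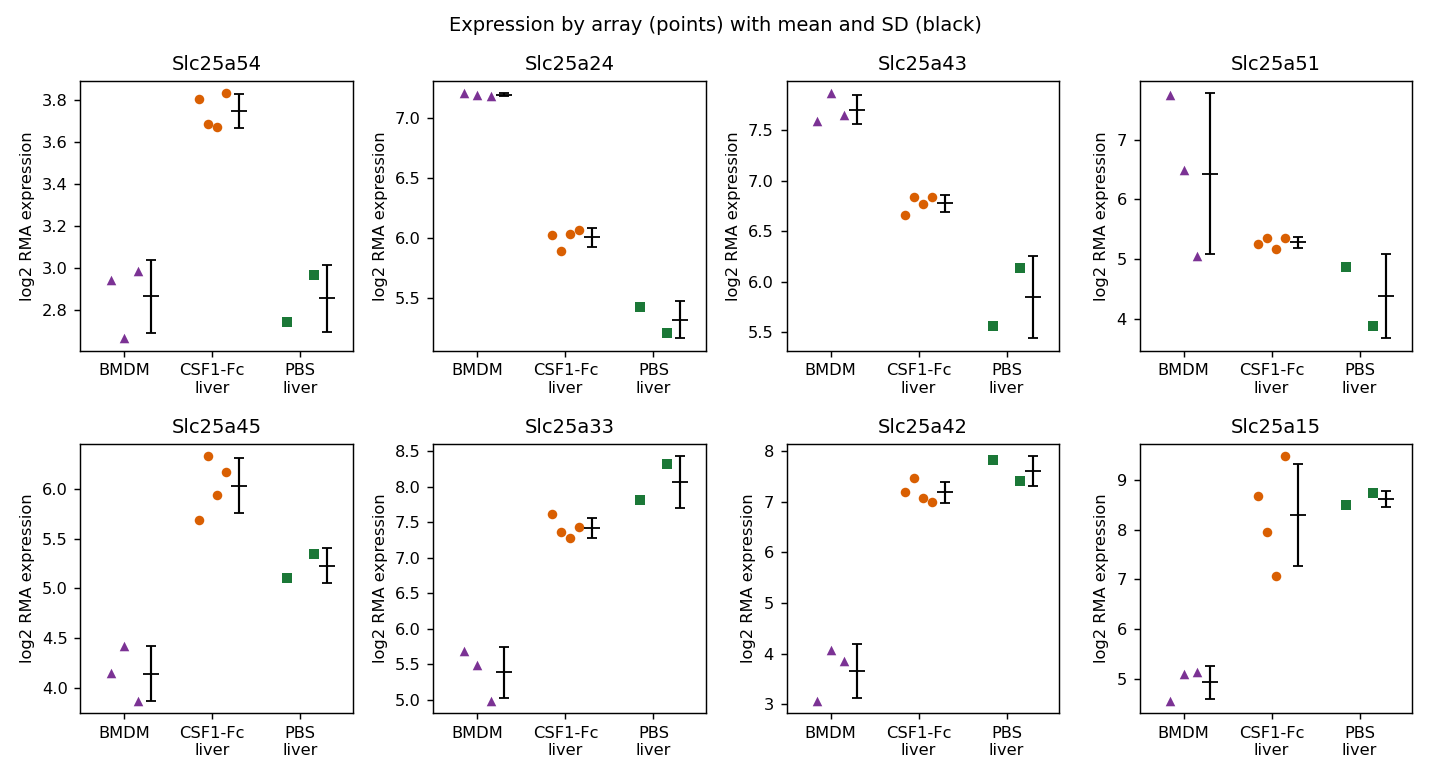
Log2 RMA expression of 8 members on each array, in BMDM (3), CSF1-Fc livers (4) and PBS livers (2), with the mean and SD in black; each panel has its own vertical scale. Slc25a54 is higher in the CSF1-Fc livers than in BMDM and PBS livers, but only near the array median of 3.81. Slc25a24 and Slc25a43 are highest in BMDM, and Slc25a15 spreads between 7.07 and 9.49 within the CSF1-Fc livers.

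The carriers of the main hepatocyte pathways did not pass between the livers. The 6 carriers of di- and tricarboxylates had a median difference of -0.081 (between -0.25 and 0.033), the 8 of amino acids and the urea cycle -0.27, and the 3 of adenine nucleotides 0.13. These lists hold dim probe sets: Slc25a21, Slc25a34 and Slc25a35 lay at the 44.4th to 49.4th percentile in CSF1-Fc livers. Slc25a18 and Slc25a29 lay at the 44.0th and 46.3th, and Slc25a31 at the 14.4th. The brighter Slc25a1, Slc25a10 and Slc25a11 differed by -0.20, -0.25 and -0.10 between the livers. The adenine nucleotide translocases Slc25a4 and Slc25a5, which exchange matrix ATP for cytosolic ADP, differed by 0.13 (adjusted p = 0.776) and 0.14 (adjusted p = 0.784). The mitoferrins Slc25a28 and Slc25a37, which import iron for heme and iron-sulphur clusters, differed by -0.059 and 0.18. A value that misses the threshold with 2 PBS livers does not show that levels were equal.

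The spread within the treated livers was large for a few members. Slc25a15, the ornithine carrier of the urea cycle, was at 8.67, 7.96, 7.07 and 9.49 in CSF1-Fc livers, which enclosed the PBS livers at 8.50 and 8.73. CSF1-Fc liver 3 was the lowest and liver 4 the highest, an order shared by several other members, among them Slc25a4, Slc25a5, Slc25a37 and Slc25a32. Slc25a32, the carrier of folate and FAD, was at 7.27, 7.07, 6.94 and 8.20 in CSF1-Fc livers, against 7.62 and 7.49 in PBS livers. Arginase 1 (Arg1), the cytosolic enzyme that releases ornithine, was also lowest in CSF1-Fc liver 3, at 8.84, 8.33, 7.09 and 8.75, against 8.51 and 8.32 in PBS livers. So were Got1 and Mdh1, enzymes listed apart from the urea cycle, while the urea cycle enzymes Cps1 and Ass1 were not. In the PBS livers, Slc25a39, needed for mitochondrial glutathione, was at 8.18 and 9.48, on either side of the CSF1-Fc livers at 8.78, 8.94, 8.83 and 8.78.

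Among 41 measured genes of 8 partner lists, 2 passed between the livers, both as higher, where 1.22% of all probe sets passed as higher and 0.254% as lower. Ornithine aminotransferase (Oat), which feeds on ornithine in the matrix, was at 7.53, 7.59, 7.59 and 7.69 in CSF1-Fc livers and 6.49 and 6.61 in PBS livers (1.05, SE 0.12, adjusted p = 0.0194). Malic enzyme 1 (Me1), which makes NADPH from malate in the cytosol, was at 6.71, 7.33, 7.67 and 6.98 in CSF1-Fc livers and 5.20 and 5.33 in PBS livers (1.90, SE 0.28, adjusted p = 0.0369). The carriers nearest to these reactions, Slc25a15 for ornithine and Slc25a1 for citrate, differed by -0.32 (SE 0.63) and -0.20 (SE 0.15). Uncoupling protein 2 (Ucp2), a relative of the family outside the Slc25a symbols, was at 10.38, 10.83, 10.75 and 10.70 in CSF1-Fc livers and 9.31 and 9.78 in PBS livers, and its difference of 1.12 missed the threshold (adjusted p = 0.0618).

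In BMDM the family lay mostly below its level in liver. Against CSF1-Fc liver, 19 of 40 members passed as lower and 4 as higher, where 17.5% of all probe sets passed as lower and 19.9% as higher. Against PBS liver, 15 passed as lower and 2 as higher, where 10.4% and 10.2% of all probe sets did. Both comparisons use the same BMDM arrays. BMDM did not overlap with CSF1-Fc livers for 27 members, where 44.2% of all probe sets did not. With PBS livers there was no overlap for 29 members, where 47.2% of all probe sets had none. The median difference was -0.62 over the members and 0.14 over all probe sets against CSF1-Fc liver, and -0.64 and 0.12 against PBS liver. Members were mostly bright probe sets: of the 29 above the median level of the arrays compared with CSF1-Fc liver, 17 passed as lower and 4 as higher, where 31.4% and 25.6% of all probe sets that bright did. Against PBS liver, 15 of 29 such members passed as lower and 2 as higher, where 18.5% and 17.4% of all probe sets that bright did.

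**Figure D3:**
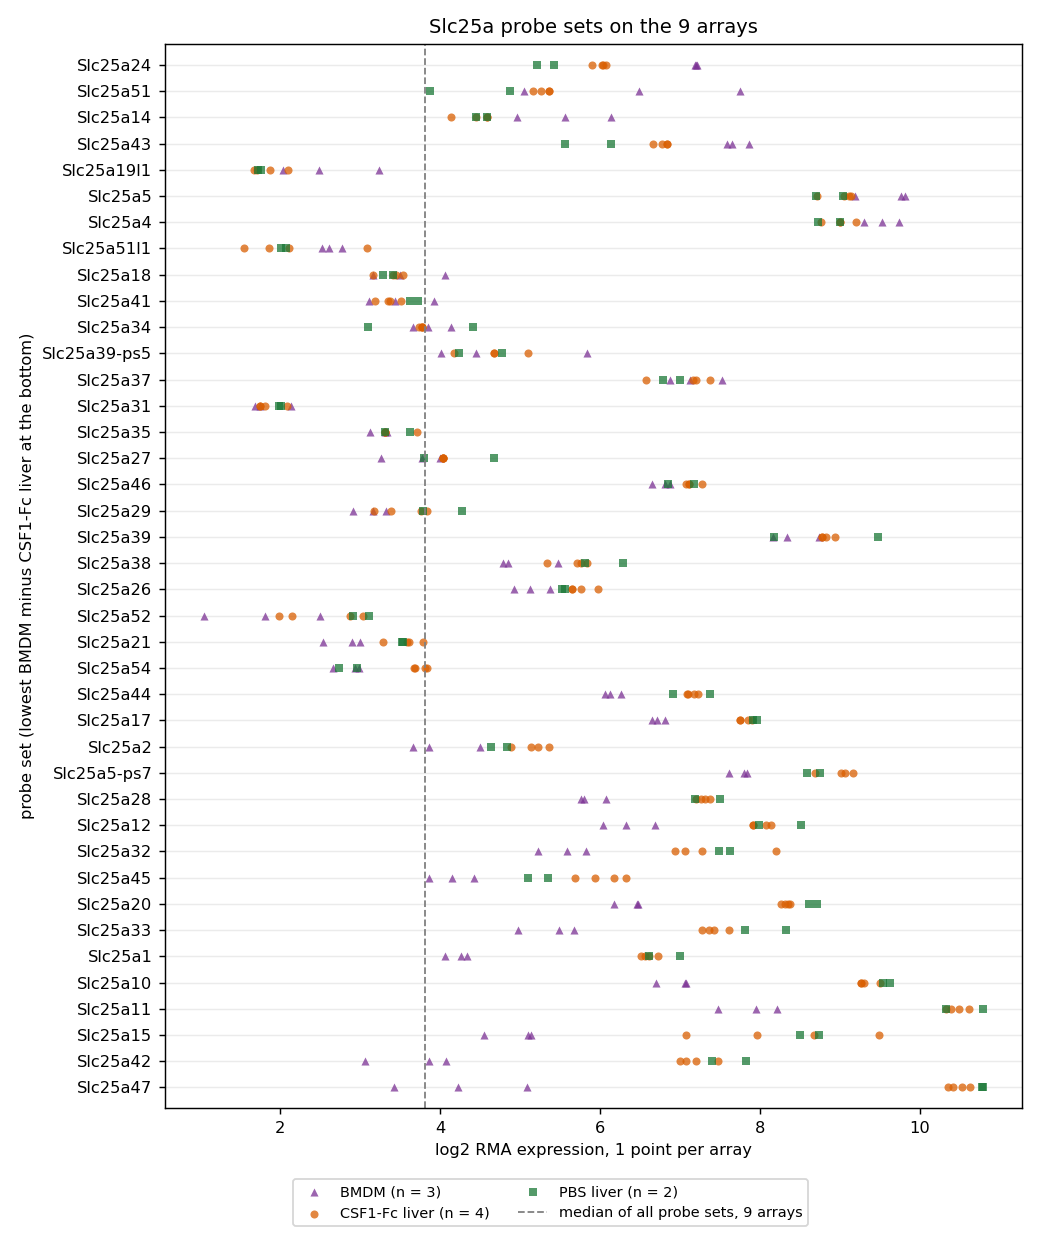
Log2 RMA expression of the 40 Slc25a probe sets, 1 point per array, in BMDM (purple triangles), CSF1-Fc livers (orange circles) and PBS livers (green squares), ordered by BMDM minus CSF1-Fc liver; the dashed line is the median of all probe sets. Levels of different probe sets are not comparable, but for Slc25a47, Slc25a42, Slc25a15, Slc25a11, Slc25a10 and Slc25a1 every BMDM point lies left of every liver point, while the livers of Slc25a15 spread between 7.07 and 9.49.

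Slc25a47, a carrier found mainly in hepatocytes, had the largest difference. It was at 4.22, 3.42 and 5.09 in BMDM, against 10.63, 10.52, 10.42 and 10.36 in CSF1-Fc livers and 10.80 and 10.78 in PBS livers. The difference was -6.24 against CSF1-Fc liver (SE 0.35, adjusted p = 8.4e-06) and -6.54 against PBS liver (SE 0.50, adjusted p = 6.8e-04). Slc25a42 followed at 3.06, 4.07 and 3.86 in BMDM, with differences of -3.53 (SE 0.26) and -3.95 (SE 0.38). In BMDM both genes were near the middle of the array, at the 57.7th and 48.5th percentile of all probe sets. Without detection calls it is not known whether they were above background there, so the true differences may be larger than these, and no fold is given.

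The promoters of these 2 genes are shown, in the same form as above, because they had the largest differences between BMDM and liver among the members.
Slc25a47, chr6:133531491-133531740: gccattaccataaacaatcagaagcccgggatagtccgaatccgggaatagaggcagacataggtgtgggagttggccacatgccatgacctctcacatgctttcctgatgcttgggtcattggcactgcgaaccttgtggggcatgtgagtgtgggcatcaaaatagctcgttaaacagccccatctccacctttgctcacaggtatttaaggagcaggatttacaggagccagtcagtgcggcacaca
Slc25a42, chr16:19247724-19247973: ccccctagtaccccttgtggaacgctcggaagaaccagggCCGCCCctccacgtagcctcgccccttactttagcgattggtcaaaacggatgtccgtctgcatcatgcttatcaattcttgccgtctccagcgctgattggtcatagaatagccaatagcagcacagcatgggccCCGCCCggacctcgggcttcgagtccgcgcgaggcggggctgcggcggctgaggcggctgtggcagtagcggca
The promoter of Slc25a47 held none of the 6 motifs searched, while Slc25a42 held GGGCGG on the opposite strand 210 and 74 bases before the start. Over the 33 promoter entries of 32 members, 18 held GGGCGG, and the median GC content was 57.2%, against 51.2% over all promoters. GGGCGG was in 3 of 4 promoters of members higher in BMDM than in CSF1-Fc liver, 8 of 16 of those lower and 7 of 12 of the rest. CAAAGTCCA, an HNF4A motif, and GAGGAAGT, a PU.1 motif, were in none of the 33 and in 0.338% and 2.04% of all promoters, TTGCNNAA, a C/EBP motif, in 4 (9.22% of all), and the TATA box TATAAA in 1 (12.9% of all). CCGGAAGT was in 2 of them, Slc25a20 and Slc25a54. A match describes letters in this window and not binding.

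Carriers of di- and tricarboxylates were lower in BMDM for 4 of 6 members against CSF1-Fc liver and 3 of 6 against PBS liver, where 17.5% and 10.4% of all probe sets were. Slc25a11, the oxoglutarate carrier of the malate-aspartate shuttle, was at 7.95, 8.21 and 7.48 in BMDM, against 10.33, 10.61, 10.39 and 10.50 in CSF1-Fc livers and 10.33 and 10.80 in PBS livers. Its difference from CSF1-Fc liver was -2.58 (SE 0.20, adjusted p = 3.7e-05). Slc25a10, the dicarboxylate carrier, was at 7.06, 6.70 and 7.08 in BMDM, against 9.51, 9.26, 9.27 and 9.30 in CSF1-Fc livers and 9.63 and 9.54 in PBS livers (-2.38, SE 0.15). Slc25a1, the citrate carrier, was at 4.06, 4.34 and 4.26 in BMDM, against 6.61, 6.72, 6.51 and 6.57 in CSF1-Fc livers and 6.61 and 7.00 in PBS livers (-2.38, SE 0.14). All 3 genes had every BMDM array below every liver. Slc25a34 and Slc25a35, which have no settled substrate, had differences of 0.12 and -0.15 and did not pass.

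Enzymes that use the same metabolites were mostly lower in BMDM than in CSF1-Fc liver, and few passed against PBS liver. Of 4 genes for citrate use in the cytosol, all 4 were lower against CSF1-Fc liver and 1, Aco1, against PBS liver. Of all probe sets, 17.5% and 10.4% were lower in these comparisons. Me1 was at 6.77, 5.62 and 5.64 in BMDM, above both PBS livers, with a difference of 0.74 that did not pass (adjusted p = 0.298). Of 4 malate-aspartate shuttle enzymes, Got1 (-3.07), Got2 (-1.09) and Mdh2 (-0.94) passed as lower against CSF1-Fc liver, while Mdh1 differed by 0.31 (adjusted p = 0.251). Against PBS liver Got1 alone passed (-2.89), and Mdh1 differed by 0.19 (adjusted p = 0.678).

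Carriers of amino acids and the urea cycle were lower for 5 of 8 members against CSF1-Fc liver and 4 of 8 against PBS liver, and none was higher. Slc25a47, given above, was placed in this list and is counted in both. Of all probe sets, 17.5% and 10.4% were lower. Slc25a15 was at 4.55, 5.10 and 5.13 in BMDM, below all 6 livers, with differences of -3.37 from CSF1-Fc liver (SE 0.52, adjusted p = 0.00154) and -3.69 from PBS liver (SE 0.30). Slc25a12, the aspartate-glutamate carrier called aralar, differed by -1.66 and -1.90, and Slc25a44, which carries branched-chain amino acids, by -0.996 in each, and both passed in both comparisons. Against PBS liver the call of Slc25a12 was lost without PBS liver 1 (adjusted p = 0.0788). That of Slc25a44 (adjusted p = 0.0493) was lost with each of the 5 arrays left out in turn (0.0792 or higher) and with the replicate block (0.145). Slc25a2, a second ornithine carrier, was lower against CSF1-Fc liver (-1.15, adjusted p = 0.00541), while its difference of -0.74 from PBS liver did not pass. Slc25a38, which brings in glycine for heme synthesis, had differences of -0.62 (adjusted p = 0.0568) and -1.01 (adjusted p = 0.0876). In the urea cycle list, Cps1 (-8.07), Ass1 (-6.59) and Nags (-3.18) were lower in BMDM than in CSF1-Fc liver and the mitochondrial arginase Arg2 was higher (1.07). Against PBS liver Cps1, Ass1, Nags and Arg1 (-1.23, adjusted p = 0.0496) were lower. Oat was higher there (1.47, adjusted p = 0.0112), and Arg2 did not pass (adjusted p = 0.0720).

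Fatty acid and cofactor carriers were mostly lower as well. Slc25a20 and Slc25a45 were lower than in CSF1-Fc liver by differences of -1.96 and -1.89, beside the carnitine palmitoyltransferases Cpt1a (-4.92), Cpt1b (-3.55) and Cpt2 (-2.24), which all passed. Against PBS liver the difference of Slc25a45 was -1.09 and its adjusted p of 0.0443 passed in 3 of 12 alternatives. Of 6 carriers of nucleotide cofactors, 4 were lower in both comparisons: Slc25a42, Slc25a33 (-2.04 and -2.69), Slc25a32 (-1.82 and -2.01) and the peroxisomal carrier Slc25a17 (-1.09 and -1.21). Of all probe sets, 17.5% were lower against CSF1-Fc liver and 10.4% against PBS liver. Against PBS liver, Slc25a17 was lost without BMDM 2, PBS liver 1 or PBS liver 2 (up to an adjusted p of 0.0822) and with the replicate block (0.0742), and Slc25a32 without PBS liver 1 (0.0507). Slc25a51 had a higher mean in BMDM, yet its arrays were at 7.75, 6.49 and 5.05 and the difference of 1.15 from CSF1-Fc liver did not pass (SE 0.54, adjusted p = 0.139). Without BMDM 3 it was 1.83 (adjusted p = 0.00514), so that culture decided the call.

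The iron and heme genes split. Slc25a28, mitoferrin 2, was lower in BMDM (-1.41 against CSF1-Fc liver, SE 0.14, and -1.47 against PBS liver, the last lost without BMDM 2 or either PBS liver and with the replicate block, at an adjusted p of up to 0.0806), whereas Slc25a37, mitoferrin 1, differed by 0.10 (SE 0.24, adjusted p = 0.778) and 0.28. Mitoferrin 1 is the form that developing red cells use. Of the 6 measured erythroid markers, 5 were lower in BMDM than in CSF1-Fc liver and 4 than in PBS liver, and none passed between the livers. The part of developing red cells in the level of Slc25a37 was not tested. All 6 measured genes of heme synthesis were lower in BMDM than in CSF1-Fc liver, from Alad (-2.77) to Cpox (-0.48). Against PBS liver 4 of them were lower, while Cpox (adjusted p = 0.297) and Ppox (adjusted p = 0.137) did not pass. Of all probe sets, 17.5% were lower against CSF1-Fc liver and 10.4% against PBS liver. The carrier of S-adenosylmethionine, Slc25a26, was lower by a difference of -0.62 (adjusted p = 0.0187), which was lost without CSF1-Fc liver 2 or liver 4 (adjusted p up to 0.0536) and with the replicate block (0.0767).

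Slc25a24, Slc25a43, Slc25a14 and Slc25a4 were the 4 members that passed with BMDM above CSF1-Fc liver. Slc25a24 was at 7.21, 7.20 and 7.18 in BMDM, above all 6 livers, with differences of 1.19 from CSF1-Fc liver (SE 0.12, 2.28-fold, adjusted p = 1.7e-04) and 1.88 from PBS liver (SE 0.24, adjusted p = 0.00384). Slc25a43 was at 7.59, 7.87 and 7.65, with differences of 0.93 (adjusted p = 0.00113) and 1.86 (adjusted p = 0.00748, and 0.0515 without PBS liver 1). For both genes the CSF1-Fc livers lay between BMDM and the PBS livers, while the macrophage markers were higher in CSF1-Fc than in PBS livers as given above, and the part of macrophage number in these 2 levels was not tested.

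Slc25a14, an uncoupling protein-like carrier, was at 6.14, 5.57 and 4.96 in BMDM, against 4.14, 4.45, 4.59 and 4.59 in CSF1-Fc livers and 4.59 and 4.45 in PBS livers (1.11, SE 0.28, adjusted p = 0.0155 against CSF1-Fc liver, and 0.0715 with the replicate block). It did not pass against PBS liver (1.04, adjusted p = 0.129). Slc25a4 was at 9.53, 9.74 and 9.30 in BMDM, against 8.77 and 9.20 in CSF1-Fc livers 3 and 4, with CSF1-Fc livers 1 and 2 between them, and 8.72 and 9.01 in PBS livers. Its difference of 0.53 (SE 0.17) was close to the threshold (adjusted p = 0.0409), and 5 of the 7 single arrays left out raised its adjusted p past 0.05, to at most 0.103, as did the replicate block (0.0872).

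Slc25a54 ran against this order: BMDM were lower than CSF1-Fc liver by a difference of -0.89 (SE 0.14, adjusted p = 0.00171) and did not differ detectably from PBS liver (0.0097, SE 0.26). By mean, Slc25a45 was also highest in CSF1-Fc livers and was lowest in BMDM, an order shared by other members such as Slc25a2, Slc25a26 and Slc25a5-ps7. Slc25a5, the translocase of most dividing cells, was at 9.19, 9.82 and 9.76 in BMDM, against 9.06, 9.12, 8.71 and 9.14 in CSF1-Fc livers and 8.70 and 9.04 in PBS livers (0.58, SE 0.20, adjusted p = 0.0581). Its pseudogene Slc25a5-ps7 went the other way, at 7.61, 7.80 and 7.84 in BMDM, against 9.17, 9.01, 8.69 and 9.06 in CSF1-Fc livers and 8.60 and 8.76 in PBS livers (-1.23, SE 0.16, adjusted p = 6.2e-04). The copies may share probes, so the split of signal between them is uncertain.

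**Figure D4:**
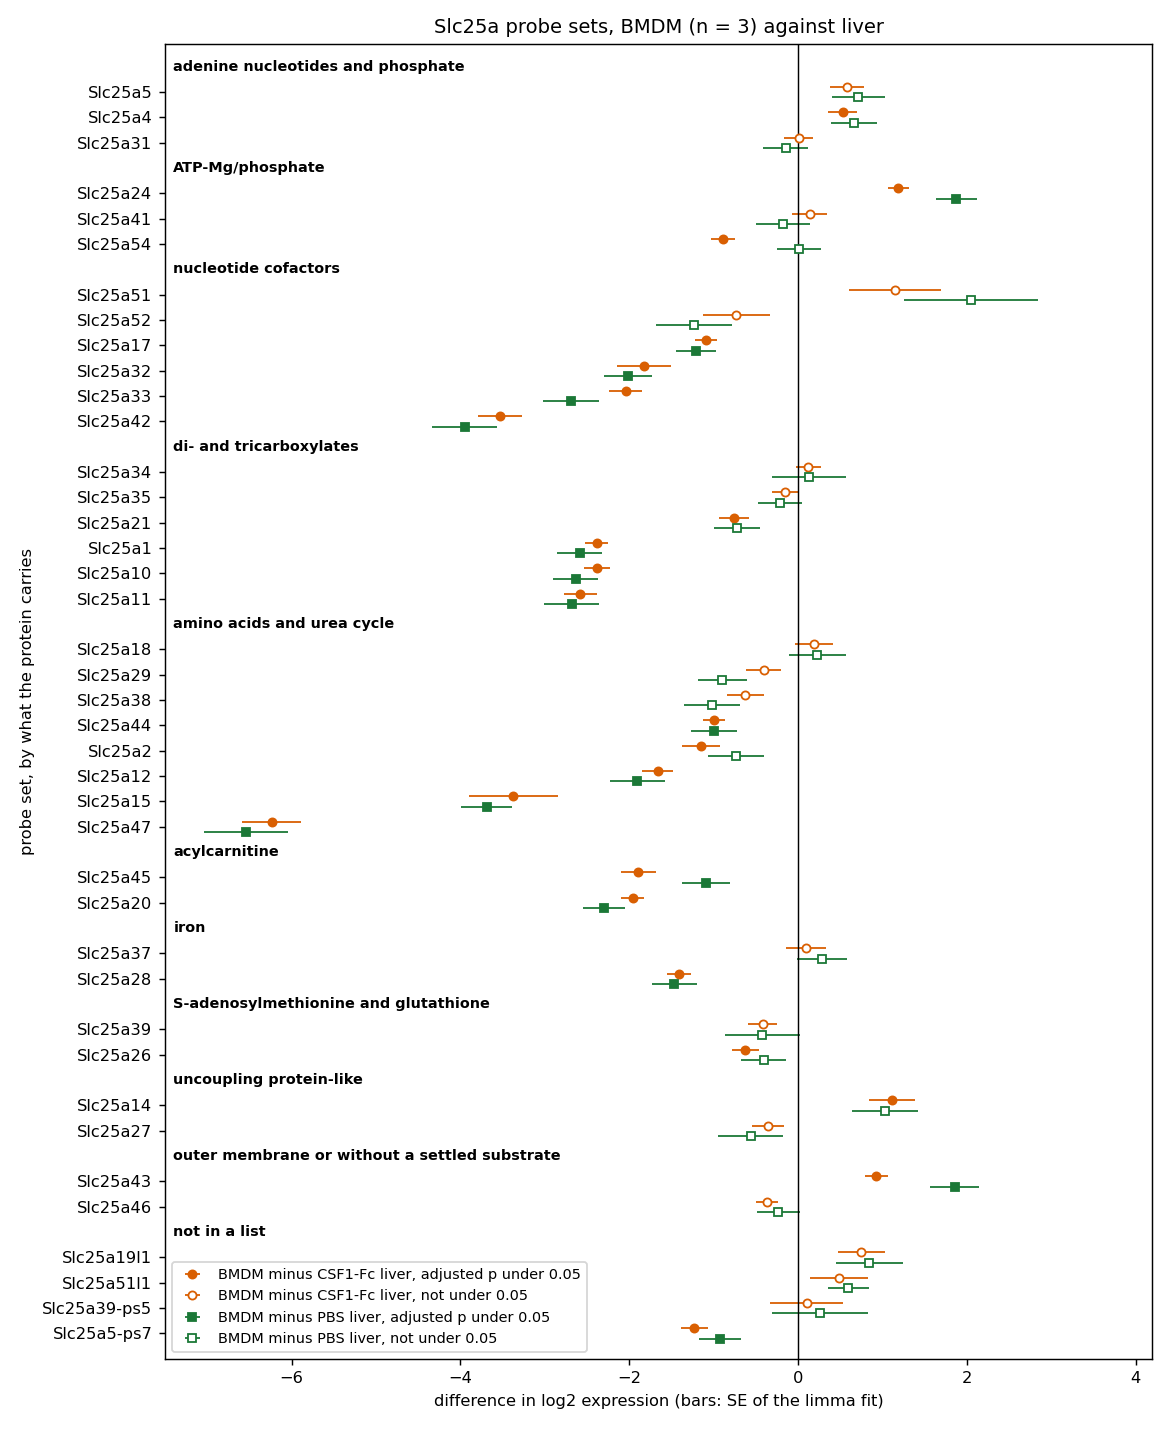
Difference in log2 expression of each Slc25a probe set between BMDM (n = 3) and CSF1-Fc livers (orange circles, n = 4) or PBS livers (green squares, n = 2), grouped by what the protein carries, with the standard error of the limma fit as bars and filled marks for an adjusted p under 0.05. Slc25a47 lies at -6.24 and -6.54, the carboxylate, urea cycle and acylcarnitine carriers lie mostly left of 0, and Slc25a24 and Slc25a43 are filled to the right in both comparisons.

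Genes for moving carriers into the membrane did not share the direction of the carriers. Of 11 measured import genes, 6 were higher in BMDM than in CSF1-Fc liver, among them the receptor Tomm70 (1.00) and the small Tim chaperones Timm8a1 (2.07), Timm13 (1.75) and Timm10 (1.70). Lower were 2, Tomm22 (-1.09) and the pore Tomm40 (-1.45). Of all probe sets, 19.9% were higher and 17.5% lower, so the count of lower import genes is near that share. Against PBS liver, Tomm20 (1.63) alone passed. The porins of the outer membrane, Vdac1 (1.12), Vdac2 (0.55) and Vdac3 (0.67), were all higher in BMDM than in CSF1-Fc liver. Against PBS liver Vdac1 passed (1.11), while Vdac2 (adjusted p = 0.469) and Vdac3 (adjusted p = 0.236) did not. None of these genes passed between the livers.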

How the data were processed

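RNA was extracted with TRIzol and column clean-up, hybridised to Affymetrix Rat Gene 2.1 ST arrays and checked in Affymetrix Expression Console. The authors summarised signals to probe sets and deposited log2 values after RMA normalization, and whether all 9 arrays were normalized together is not given in the sources used here. The deposited log2 values were used unchanged. Names came from the annotation of the platform (14824 with 1 symbol, 829 with several, 21032 with none). For each pair of groups a linear model was fitted to their arrays only, with lmFit and eBayes of limma 3.58.1 under R 4.3.3. P-values were adjusted over the 36685 probe sets by the Benjamini-Hochberg method, and 0.05 was the threshold. The fits were tested on simulated data. No detection calls were used. Counts over lists are descriptions beside the same counts over all probe sets. Tables were made with Python 3.11.15 and pandas 2.3.3, plots with matplotlib 3.10.9, and promoters came from RefSeq (GRCr8).

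The members and the lists of carriers, partners and markers were chosen with earlier results of these data known. Values of every array were given for members that passed between the livers, the 4 highest and 4 lowest differences there, and up to 6 in each direction between BMDM and CSF1-Fc liver among those that passed. Of the partner lists, genes that passed and up to 2 others with the largest change were named. Outside this rule, Slc25a32, Slc25a39, Slc25a5, Slc25a5-ps7, Slc25a27, Arg1, Mdh1 and the markers with values were chosen after their values were seen. Alternatives were all 9 arrays in 1 fit, a filter on dim probe sets, probe sets with 1 symbol, averaging the probe sets of a gene, a trended robust prior, quantile normalization, centring on the array median or on respiratory chain genes, the replicate block and each array left out.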

Additional observations from a re-analysis of the deposited data

Results flagged for a closer look

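In 3 members, 1 of the 4 CSF1-Fc livers stood far from the other 3 by Dixon's criterion, among 39 members tested. Chance gives such a gap in about 1 in 20 groups. Slc25a10 was at 9.51 in CSF1-Fc liver 1, with the other CSF1-Fc livers between 9.26 and 9.30. Slc25a34 was at 3.74 in CSF1-Fc liver 3, with the other CSF1-Fc livers all at 3.77, so the whole range was 0.034. Slc25a35 was at 3.71 in CSF1-Fc liver 4, with the other CSF1-Fc livers all at 3.31. In the last 2 genes the gap is measured against equal values: 12 members, and 20.4% of all probe sets, had equal values on at least 2 CSF1-Fc livers. The origin of the equal values was not tested.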

How the results depend on the processing

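Between the livers, 1 member was higher and 0 lower, where 449 and 93 of 36685 probe sets were. With only probe sets of 1 symbol 3 members were higher, where 558 of 14824 probe sets were. After averaging the probe sets of a gene 3 members were higher, where 558 of 14557 genes were. With the trended robust prior, array median centring or the replicate block 0 members were higher, where 399, 420 and 0 probe sets were. With any 1 CSF1-Fc liver left out, 0 members and 0 probe sets passed. Fits without 1 PBS liver leave a single PBS array, and their calls are not counted here. The adjusted p of Slc25a54 was 0.0109 to 0.588 over the 14 alternatives that tested it, and it was too dim for the filter on dim probe sets. Against CSF1-Fc liver, 4 members were higher in BMDM, 2 with the replicate block and 3 to 5 with an array left out. Against PBS liver, 2 members were higher in BMDM, 5 with all 9 arrays in 1 fit and 1 to 4 with an array left out, while 15 were lower and 8 to 12 with an array left out (8 without PBS liver 1). Small differences changed sign: between the livers Slc25a11 was 0.021 and Slc25a14 0.048 with respiratory chain centring, which moved the median of all probe sets to 0.091, against -0.034 as deposited, and so raised every difference alike. With an array left out Slc25a11 was -0.34 to 0.13, Slc25a14 -0.14 to 0.022, Slc25a15 -0.71 to 0.089 and Slc25a4 -0.013 to 0.27. Between BMDM and PBS liver, Slc25a54 was -0.14 with quantile normalization, -0.052 with the replicate block and -0.10 to 0.12 with an array left out. The cause of the other changes was not tested. The labels do not say what the replicate numbers mark or that arrays with the same number belong together, so they were not taken as pairs. The replicate block kept only arrays whose number occurs in both groups. It thus had fewer arrays, and a call lost there can come from that. Deviations of arrays with the same number correlated at 0.125 between the livers, with 2 pairs, and at -0.070 to -0.017 in the comparisons with BMDM. A fit with PBS liver 1 or 2 left out assumes that the lone PBS liver varies like the other group. With 2 PBS livers, a difference that misses the threshold was not detectable rather than absent.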

Other observations

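Among members near the bottom of the array, Slc25a19l1 and Slc25a51l1 had higher means in BMDM than in CSF1-Fc liver, with differences of 0.75 (adjusted p = 0.0719) and 0.49 (adjusted p = 0.301) that did not pass. Slc25a27, an uncoupling protein-like carrier of the nervous system, was at 4.04 on all 4 CSF1-Fc livers and at 4.68 and 3.81 in PBS livers. Brown fat uncoupling protein 1 (Ucp1) was at 3.35, 2.74 and 3.07 in BMDM, against 1.64, 1.87, 1.71 and 1.87 in CSF1-Fc livers, all below the array median of 3.81. Slc25a29 and Slc25a47 are neighbours on rat chromosome 6, on opposite strands and with no protein-coding gene between them, and differed from CSF1-Fc liver by -0.40 (adjusted p = 0.167) and -6.24 in BMDM. Slc25a43 and Slc25a5 are neighbours on chromosome X and differed by 0.93 and 0.58.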
